A study of Mus musculus with 12 samples.

Results

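The nuclear genes of oxidative phosphorylation encode the subunits of respiratory complexes I to IV and of ATP synthase (complex V) that are made in the cytosol and imported into mitochondria. They were taken here by symbol, as the mRNA genes without a pseudogene label whose names start with Nduf and a subunit letter and number, with Uqcr, with Cox4 to Cox8 or with Atp5, together with Sdha, Sdhb, Sdhc and Sdhd. The rule used no measured value. It found 81 of the 14011 nuclear genes with a kept read, and these held 147065 of 4212664 reads (3.49%). Complex I had 35 of the genes, complex II had 4, complex III had 8, and complexes IV and V had 17 each. Ndufa4 and its paralog Ndufa4l2 were counted with complex IV, where the Ndufa4 protein is now known to reside.

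Electrons from nutrients enter the chain at complexes I and II, pass through ubiquinone and complex III to cytochrome c, and reach oxygen at complex IV. The proton gradient that this builds drives ATP synthesis in complex V, and cells that become neurons are known to come to rely on this route more than on glycolysis. Each complex has a core, mainly the subunits that carry flavins, iron-sulfur clusters or the sites of catalysis and proton flow. Its supernumerary subunits mostly surround the core and serve assembly and stability. Atp5d of the central stalk of complex V was also counted as core here, and its partner Atp5e as supernumerary. Complexes I, III, IV and V also contain subunits encoded by the mitochondrial genome, so their nuclear and mitochondrial mRNAs come from separate transcription systems.

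The cells were P19, a mouse embryonal carcinoma line of wild-type genotype that retinoic acid turns towards neurons. D0 cells were undifferentiated, kept in DMEM with serum and without retinoic acid. D2, D4 and D6 cells were grown for 2, 4 or 6 days in NDiff 227 medium with 500 nM retinoic acid on plates coated with poly-L-lysine, so that medium and retinoic acid cannot be told apart. Each day had 3 biological replicates, and the 12 libraries of oligo(dT)-selected RNA were read by nanopore direct RNA sequencing, in which 1 read is 1 polyadenylated molecule captured at its 3′ end and also gives the length of its poly(A) tail. All cells descend from a single line, and no neuron from tissue was studied.

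The depth was lowest for D2 replicate 1, with 118587 kept reads, and highest for D0 replicate 2, with 602155. The 13 sequencing runs held 1 day each, so day and run cannot be told apart. The run names of the D0 libraries contain D2 as well as the word undifferentiated, and 2 of the D6 runs name no day. Grouping followed the sample labels. Levels are given as scaled RPM, reads per 1000000 nuclear mRNA reads of the library after scaling by the trimmed mean of M-values. Since 1 read stands for 1 molecule whatever its length, they were not divided by length. The median aligned length of nuclear mRNA reads moved with the day. It was 648, 727 and 702 nt at D0, 752, 700 and 722 nt at D2, 801, 828 and 747 nt at D4, and 820, 742 and 782 nt at D6, with D4 and D6 above D0, and its part in the results was not tested. A list of 10 pluripotency markers summed to between 1743 and 2017 scaled RPM at D0 and to at most 12.4 in any later library. Zfp42, Dppa5a, Fgf4 and Klf4 of this list had no read in any library, and only 3 of the 10 reached 30 reads. The 12 neuronal markers summed to between 553 and 603 at D0 and to between 2928 and 3066 at D6. The 8 neural progenitor markers were as high at D6, between 2790 and 3264, against 701 to 743 at D0, so that D6 libraries held transcripts of both lists. Glial markers summed to between 46.7 and 61.4 at D6, with no read of Aqp4 and S100b, against 72.4 to 110 at D0. Muscle markers summed to at least 44.7 at D0 and reached at most 7.22 at D6, and endoderm and mesoderm markers reached at most 14.6 at D0 and 5.50 at D6. Of these, 4 of the 9 muscle genes (Myh6, Myh7, Tnnt2 and Myog) and 4 of the 8 others (Gata4, Sox17, Afp and T) had no read in any library. In bulk RNA, fewer cells of a type and less RNA per cell cannot be told apart.

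The members span a wide range of levels. Atp5b, the catalytic beta subunit of ATP synthase, had the most reads of complex V, and its D0 libraries held 1843, 2034 and 1742 scaled RPM. Cox7c, a small membrane subunit, led complex IV with 1272, 1362 and 1337 at D0. Uqcrq, a small subunit of complex III, led its complex with 729, 742 and 790 at D0. Ndufa7 led complex I with 451, 566 and 528, and Sdhb led complex II with 292, 279 and 277. The most abundant mRNAs of the different complexes thus stood at different levels at D0, with no overlap between the libraries of Atp5b, Cox7c and Uqcrq. At the other end, Cox4i2, Cox6a2, Cox7a1 and Ndufa4l2 had 2, 1, 25 and 4 reads in all 12 libraries and were the 4 members left out of the abundance fits, which took the 77 members with at least 30 reads. These 4 are isoforms known from lung, heart and muscle or low oxygen.

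The mRNAs of the members were short in the median. The median annotated transcript length was 780 nt for the 77 members and 3023.5 nt for all genes tested, and within the members it was 1363 nt for core and 652 nt for supernumerary subunits. Single members are longer, such as Atp5g1 with 4715 nt. They are scattered over 19 chromosomes, and 3 lie on the X chromosome (Ndufa1, Ndufb11 and Cox7b).

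Promoter windows were searched because factors such as NRF1, GABPA and YY1 are known to bind upstream of genes for respiratory subunits. RefSeq sequences on build GRCm38.p6, running from 250 bases before to 50 bases after the start, matched 66 of the 81 members. Each motif was read on both strands. The NRF1 letters GCATGCGC (reverse complement GCGCATGC) were present for 10 of the 66 members, or 15.2%, against 6.84% of the genes tested and 2.71% of all promoters. The YY1 letters AAGATGGC (reverse GCCATCTT) were also present for 10 members, against 6.25% and 2.75%. These YY1 matches began 22 to 38 bases after the start, except those of Atp5j and Atp5pb, which began before it. The GABPA letters ACCGGAAG (reverse CTTCCGGT) were present for 7 members (10.6%, against 6.27% and 2.30%), and the estrogen-related receptor element TCAAGGTCA (reverse TGACCTTGA) for Sdhd and Atp5g3, or 3.03%, against 0.268% and 0.423%. For the SP1 letters GGGCGG (reverse CCGCCC) the shares were 40.9% of members, 73.3% of the genes tested and 35.7% of all promoters. The CCAAT box stood at 43.9%, 44.3% and 37.4%, and the E box CACGTG at 9.09%, 12.1% and 7.15%. A start of C followed by 4 pyrimidines, the mark of terminal oligopyrimidine mRNAs, was found at the annotated start of 4 of 66 members (Atp5d, Atp5g2, Ndufb11 and Uqcrfs1) and of 13 of 59 cytosolic ribosomal protein genes (22.0%), against 3.08% of the genes tested. No motif searched contains another one whole, and a match is a description of the letters only.

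Windows of 30 bases around a match are shown for members whose reads or tails are described below, read 5′ to 3′ along the gene, with the match in capitals. They lie at chr9:44920963-44920992 for Atp5l, chr5:108434429-108434458 for Atp5k, chr5:115349100-115349129 for Cox6a1 and chr9:50603877-50603906 for Sdhd, all on the minus strand, and at chr7:3617384-3617413 for Ndufa3 on the plus strand and chr19:44555393-44555422 for Ndufb8 on the minus strand. The second window of Sdhd is at chr9:50603800-50603829. Its match lies downstream of the start used in the search, and so do the matches of Ndufa3 and Ndufb8. Atp5l, Atp5k and Cox6a1 carry the NRF1 letters, Ndufa3 and Ndufb8 the YY1 letters, and Sdhd the GABPA letters and the receptor element, both on the opposite strand.
Atp5l: aaccaataacGCATGCGCatttcccccact
Atp5k: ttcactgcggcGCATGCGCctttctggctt
Cox6a1: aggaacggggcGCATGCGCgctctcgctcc
Ndufa3: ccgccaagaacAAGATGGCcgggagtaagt
Ndufb8: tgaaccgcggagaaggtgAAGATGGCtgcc
Sdhd, first window: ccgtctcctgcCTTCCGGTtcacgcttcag
Sdhd, second window: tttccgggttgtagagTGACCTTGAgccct

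The first comparison asked how much mRNA of each complex the cells held on each day. Summed over all members, RPM of the library total, with no scaling, ran from 30657 to 31575 in the D0 libraries. The range was 32270 to 35333 at D2 and 35993 to 39403 at D4, and it was 36617 to 41240 at D6. Every later library thus stood above every D0 library, and the D6 mean was 1.25 times the D0 mean. After scaling by the trimmed mean the ratio was 1.06 and the libraries of both days overlapped. The median of all genes tested moved by 0.25 on the log2 scale when library totals were used in place of the scaling.

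By complex, complex I gave the largest ratio, 1.35 of library totals and 1.14 after scaling, and it was the only one of the 5 whose D0 and D6 libraries did not overlap on either scale. Its scaled sums were 8552, 8969 and 8879 at D0 and 11163, 8980 and 10071 at D6, so that D6 replicate 2 stood only just above D0. Complex IV followed with 1.31 and 1.12, and its scaled D0 and D6 libraries overlapped. Complexes II, III and V had ratios of 1.14, 1.13 and 1.16 of library totals, and 0.968, 0.960 and 0.981 after scaling. The direction for these 3 complexes therefore depended on the scaling. Core subunits together stood at 1.06 of library totals and 0.903 scaled, and supernumerary subunits at 1.32 and 1.12.

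The mRNAs of the 13 subunits encoded by the mitochondrial genome stood higher at D6 by a wider margin. They were kept out of the fits and of the library totals, and their scaled RPM summed to 49467, 45858 and 52489 at D0, and to 111976, 82445 and 110404 at D6, without overlap. Their mean ratios to D0 were 1.37 (D2), 1.85 (D4) and 2.06 (D6) (two-sided exact permutation test of D6, p = 0.10, the smallest that 3 against 3 libraries can give). Of the 13 mRNAs, 9 had all D6 libraries above their D0 libraries and 0 had all below. The share of all genes without overlap is not given here. These 9 were also the ones with at least 10000 reads over all libraries, a sum that the higher later libraries enter. Their ratios ran from 1.63 for mt-Co1, the catalytic subunit of complex IV, to 3.28 for mt-Cytb, the subunit of complex III. The D6 libraries of the others overlapped D0. Their ratios were 0.97 for mt-Nd5, 1.16 for mt-Nd6, and 1.88 for both mt-Atp8 (27 reads) and mt-Nd4l (70 reads). At D4 the mt-Nd5 libraries lay below D0 (ratio 0.61).

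**Figure D1:**
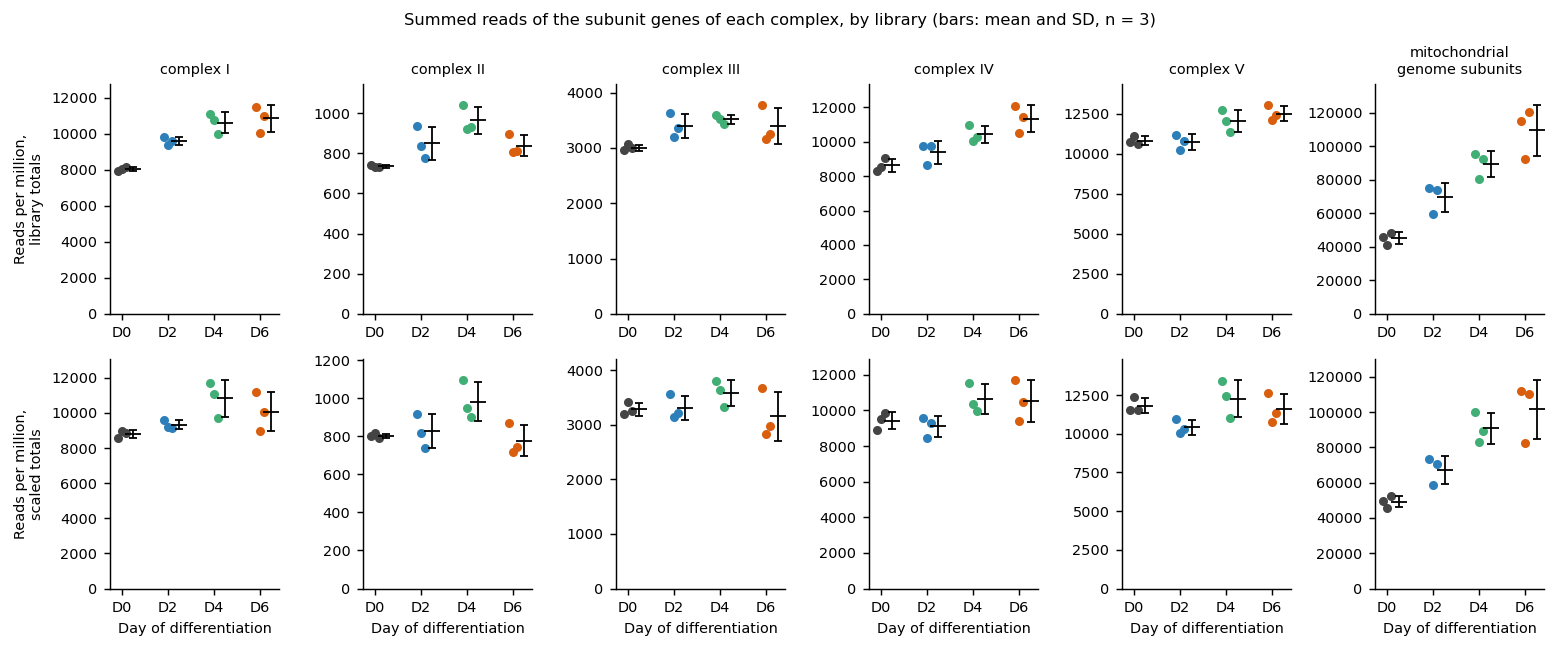
Summed reads of the subunit genes of each complex and of the mitochondrial genome (columns) in RPM, as library totals (top row) and scaled (bottom row), by day; points are libraries and bars are mean and SD of 3. Complex I at D6 stands above D0 in both rows, complexes II, III and V only in the top row, and the mitochondrial mRNAs reach 2.06 times D0 after scaling.

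The second comparison tested each gene's abundance by limma-voom over the 12 libraries, each later day against the same D0 libraries, with a call at a Benjamini-Hochberg adjusted p of at most 0.05 over 9291 genes. At D6, 15 of the 77 members rose and 7 fell. Over all genes tested 19% rose and 18.7% fell, so the members' share of rises was near the background while falls were fewer. The median log2 change of the members was 0.10, and that of all genes was 0.00. The members' median was 0.02 without D6 replicate 1, 0.17 without D6 replicate 2 and 0.35 with library totals, where that of all genes was 0.25. At D4, 23 members rose and 2 fell, against backgrounds of 12.8% and 12.5%, with a median log2 change of 0.21 for the members and 0.01 for all genes. At D2, 4 rose and 5 fell, against 4.73% and 6.10%. With library totals in place of the scaling, 45 members rose and 3 fell at D6, 41 and 2 at D4, and 10 and 2 at D2. Under the same setting 2543 of the 9291 genes rose and 1177 fell at D6, 1508 and 935 at D4, and 703 and 371 at D2. When all libraries were thinned to the smallest, 6 rose and 1 fell at D6, 9 and 1 at D4, and 2 and 2 at D2, and those called at D6 were Ndufa5, Ndufb7, Ndufb8, Ndufb11, Ndufs5, Atp5l and Atp5b. With library totals the share of rises among all calls over all genes went from 50.4% to 68.4% at D6. Without D4 replicate 1 the D4 rises numbered 14 and without D0 replicate 3 they numbered 15. Without D6 replicate 2 the D6 falls numbered 2. The D2 falls numbered 3 without D0 replicate 3 and 2 without D2 replicate 2 or D2 replicate 3.

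All 15 members that rose at D6 were supernumerary. For the 4 of them in complex IV this was fixed in advance, as the catalytic core of that complex is encoded by the mitochondrial genome. Of the 56 supernumerary subunits tested, 15 rose and 4 fell, with a median log2 change of 0.13. Of the 21 core subunits, 0 rose and 3 fell, with a median of -0.05 (limma, 5 core subunits at an unadjusted p under 0.05 in either direction). At D4, 22 supernumerary and 1 core subunit rose. The difference between both classes was not tested, and their transcript lengths differ as given above. Across the 77 members, transcript length and log2 change at D6 had a Spearman rho of -0.39, against 0.12 across 9210 genes tested. These points share libraries and are described without a test.

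**Figure D2:**
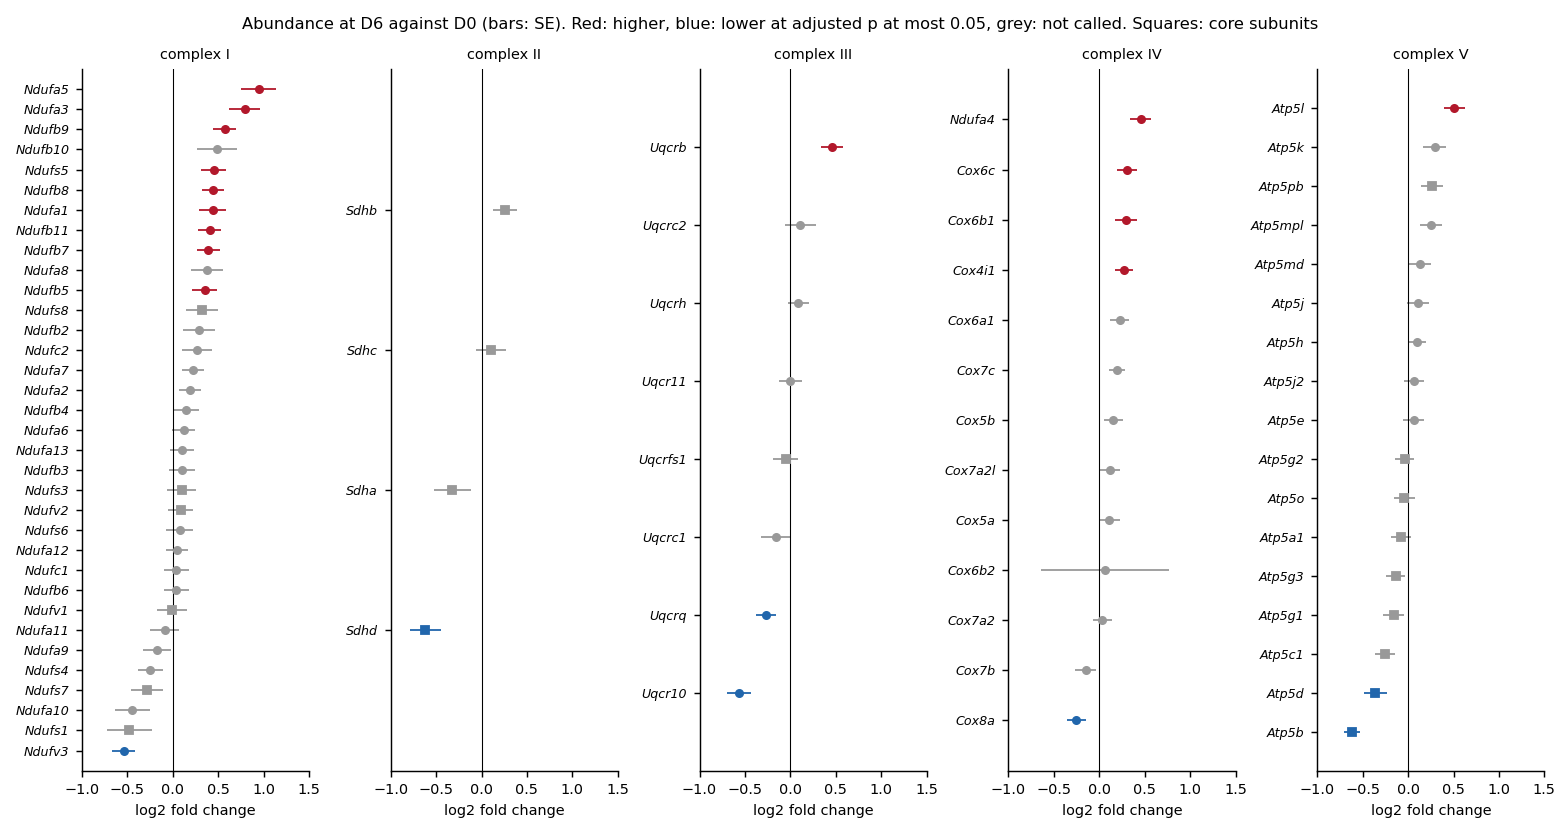
Log2 fold change of D6 against D0 (horizontal axis) for the members tested, except 1 that is not shown, sorted within each complex; points are estimates, bars are SE, squares are core subunits, red and blue mark members called higher and lower. The 15 members called higher are all circles, 9 of them in complex I.

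Complex I, the largest complex, had the most calls by number. By share, 25.7% of its members tested and 30.8% of those of complex IV rose at D6. Of its 35 members, 9 rose and 1 fell at D6, 13 rose and 1 fell at D4, and 3 rose and 1 fell at D2. Ndufa5, an accessory subunit of the peripheral arm (chr6:24518666-24528013, minus strand, mm10), held 73.1, 137 and 106 scaled RPM at D0, then 231, 211 and 178 at D2, 207, 223 and 146 at D4, and 267, 158 and 217 at D6. Every later library stood above every D0 library. On the log2 scale it rose by 0.97 ± 0.22 (SE), 0.83 ± 0.20 and 0.95 ± 0.19 on the 3 days, with adjusted p of 0.0012, 0.00077 and 5.6e-05 (limma). The D4 call was lost at a mapping quality of at least 10 and after thinning.

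Ndufa3, a small membrane-arm subunit (chr7:3617373-3620327, plus strand), held 134, 120 and 181 at D0, 240, 182 and 257 at D2, 326, 255 and 260 at D4, and 343, 198 and 245 at D6. Its libraries did not overlap D0 on any day, although D2 replicate 2 stood just above the highest D0 library. Its log2 change was 0.63 ± 0.20 at D2 (adjusted p = 0.030), 0.94 ± 0.17 at D4 (adjusted p = 1.2e-05) and 0.79 ± 0.17 at D6 (adjusted p = 0.00013). The D2 call was lost without either of D0 replicates 1 and 2 and without either of D2 replicates 1 and 3.

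Ndufa1, a small membrane protein known to be needed for assembly of the complex (chrX:37187588-37191163, minus strand), had an early peak. Its levels were 190, 222 and 228 at D0, 736, 696 and 609 at D2, 482, 384 and 325 at D4, and 350, 249 and 297 at D6. All D2 libraries lay above all D4 libraries, and all D6 libraries still lay above D0. Ndufa1 changed on the log2 scale by 1.66 ± 0.15 at D2 (3.15-fold, adjusted p = 1.6e-14), 0.84 ± 0.14 at D4 (adjusted p = 3.8e-06) and 0.44 ± 0.15 at D6 (adjusted p = 0.015). The D6 call was lost without D0 replicate 1 and without D6 replicate 1.

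Ndufb9, a membrane-arm subunit of the LYR family (chr15:58933756-58939488, plus strand), went up later. It held 331, 292 and 307 at D0, 347, 352 and 357 at D2, 512, 502 and 414 at D4, and 441, 430 and 514 at D6. The D2 libraries lay close together just above D0, and the D4 and D6 libraries lay well above both. Its log2 change was 0.61 ± 0.13 at D4 (adjusted p = 0.00012) and 0.57 ± 0.13 at D6 (adjusted p = 0.00016). The other complex I members that rose at D6 were Ndufs5, Ndufb8, Ndufb11, Ndufb7 and Ndufb5, with log2 changes from 0.35 to 0.45. Ndufb8, for example, held 351, 413 and 385 at D0 and 531, 465 and 586 at D6 (log2 change 0.44 ± 0.12, adjusted p = 0.0027), without overlap. The Ndufb5 libraries overlapped between D0 and D6. Its call was lost without D0 replicates 1 or 3 or D6 replicate 1, and in 4 of 10 alternative settings. The D6 calls of Ndufb7 and Ndufs5 were lost without D0 replicate 3, and those of Ndufb7 and Ndufb11 without D6 replicate 3.

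Ndufv3, a small accessory subunit next to the flavoproteins that accept electrons from NADH (chr17:31520115-31531331, plus strand), fell. Its levels were 395, 411 and 417 at D0, 207, 182 and 231 at D2, 313, 255 and 242 at D4, and 300, 263 and 283 at D6. It was lowest at D2 and below D0 in all 9 later libraries. Its change on the log2 scale was -0.99 ± 0.17 at D2 (adjusted p = 8.2e-06), -0.63 ± 0.13 at D4 (adjusted p = 0.00013) and -0.54 ± 0.13 at D6 (adjusted p = 0.00053). Of the 7 core subunits of complex I, 0 were called on any of the 3 days (limma, 0, 1 and 0 at an unadjusted p under 0.05 at D2, D4 and D6).

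Complex II, succinate dehydrogenase, links the tricarboxylic acid cycle to the chain and has no mitochondrially encoded subunit. Sdhd, a membrane anchor (chr9:50596357-50603812, minus strand), held 193, 246 and 245 scaled RPM at D0, 248, 199 and 115 at D2, 207, 223 and 219 at D4, and 199, 126 and 140 at D6. The days overlapped, as D6 replicate 1 lay above the lowest D0 library. The log2 change at D6 was -0.62 ± 0.17 (limma, adjusted p = 0.0025). It was not called with library totals (-0.38, adjusted p = 0.062) nor without D6 replicate 2 (-0.47, adjusted p = 0.055).

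Sdha, the flavoprotein that oxidises succinate, held 158, 107 and 104 at D0 and 72.2, 96.9 and 115 at D6 (log2 change -0.32, adjusted p = 0.22). Sdhb, the iron-sulfur subunit, held 292, 279 and 277 at D0, 440, 377 and 328 at D4, and 397, 318 and 316 at D6. It rose at D4 (0.40 ± 0.13, adjusted p = 0.019), a call lost at a mapping quality of at least 10, after thinning, and without any of D0 replicates 2 and 3 and D4 replicates 1 and 2, and at D6 its change was 0.26 (adjusted p = 0.12). Sdhc, the other anchor, changed by 0.10 at D6 (adjusted p = 0.67). The 4 subunits of this complex thus gave estimates of both signs at D6, of which 1 was called.

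In complex III, 1 of 8 members rose and 2 fell at D6. Uqcrb, a subunit near the ubiquinone site (chr13:66900617-66905378, minus strand), held 302, 309 and 287 at D0, 513, 418 and 399 at D2, 449, 478 and 439 at D4, and 430, 402 and 407 at D6. It was above D0 in all 9 later libraries, with log2 changes of 0.53 ± 0.14, 0.60 ± 0.12 and 0.46 ± 0.12 at D2, D4 and D6 and adjusted p of 0.0053, 0.00011 and 0.0024 (limma). Uqcr10, a small transmembrane subunit, held 578, 566 and 586 at D0 and 524, 289 and 421 at D6, a wide spread below a narrow one. Its log2 change was -0.57 ± 0.13 (adjusted p = 0.00029) and -0.30 without D6 replicate 2 (adjusted p = 0.070). Uqcrq held 729, 742 and 790 at D0 and 719, 579 and 602 at D6 (-0.27 ± 0.11, adjusted p = 0.038), and its call was lost in 7 of 10 alternative settings, library totals, the median of ratios and limma-trend among them, and in 4 of the 12 fits that left out a library. Uqcr11 had a change of 0.00 at D6.

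In complex IV, cytochrome c oxidase, 4 of 13 tested members rose and 1 fell at D6. Ndufa4 (chr6:11900292-11907483, minus strand) held 485, 477 and 530 at D0, 595, 493 and 645 at D2, 770, 641 and 637 at D4, and 806, 666 and 605 at D6. D4 and D6 libraries lay above D0, and D2 libraries overlapped it. The log2 change was 0.44 ± 0.12 at D4 (adjusted p = 0.0032) and 0.46 ± 0.12 at D6 (adjusted p = 0.0012). Cox6c, Cox6b1 and Cox4i1 rose at D6 by 0.30, 0.29 and 0.27 on the log2 scale, and each of these calls was lost without D0 replicate 1, D6 replicate 1 or D6 replicate 3, that of Cox6b1 also without D0 replicate 2 or 3. Of 10 alternative settings, 2 lost the call of Cox6c, 4 that of Cox6b1 and 1 that of Cox4i1. Cox8a fell by 0.25 at D6, with libraries of 1216, 1249 and 1422 at D0 and 1221, 868 and 1273 at D6 that overlapped. That call was lost in 6 of 10 alternative settings, library totals and the median of ratios among them, and in 5 of the 12 fits that left out a library, and without D6 replicate 2 the change was -0.05. Cox7a2 changed by 0.03.

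Several subunits of complex IV have a tissue isoform. Cox6b2, known as a testis isoform of Cox6b1, had 2, 2 and 4 reads at D0, 2, 3 and 5 at D2, 8, 15 and 11 at D4, and 5, 5 and 0 at D6. As a share of Cox6b1 and Cox6b2 reads together this was 1.15% ± 0.47 (SD, n = 3) in the D0 libraries, 3.61% ± 1.15 at D2 and 4.91% ± 0.58 at D4, and it was 1.47% ± 1.28 at D6. With 34 of its 62 reads at D4, Cox6b2 passed the minimum of 30 reads only through the day where it was high, so no test of it is given, although it is 1 of the 23 members counted as higher at D4. Cox7a1, the heart and muscle isoform of Cox7a2, had 4, 10 and 6 reads at D0, 1, 0 and 0 at D2, 1, 2 and 0 at D4, and 1, 0 and 0 at D6. Its share of Cox7a2 and Cox7a1 reads was 1.73% ± 0.45 at D0 and 0.13% ± 0.23 at D6, too few reads for the fit. The muscle markers, which also had fewer reads at D6, are given above, and their part in this share was not tested. Cox7a2l made up 42.8% ± 1.5, 42.1% ± 3.1, 48.2% ± 0.4 and 43.8% ± 3.2 of Cox7a2 and Cox7a2l reads at D0, D2, D4 and D6. No read was found for Cox8b or Cox8c.

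In complex V, 1 of 17 members rose and 2 fell at D6. Atp5b (chr10:128083273-128090391, plus strand) held 1298, 1221 and 1191 at D2, 1439, 1527 and 1255 at D4, and 1207, 1236 and 1215 at D6, against the D0 values given above. All 9 later libraries lay below the lowest D0 library. The log2 change was -0.60 ± 0.10 at D2 (adjusted p = 3.9e-06), -0.42 ± 0.08 at D4 (adjusted p = 7.3e-05) and -0.62 ± 0.09 at D6 (adjusted p = 2.1e-08), and the call held on every day under every alternative that was run, library totals included.

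Atp5l, subunit g of the membrane sector (chr9:44913217-44920742, minus strand), moved the other way. It held 602, 574 and 558 at D0, 529, 447 and 493 at D2, 855, 735 and 660 at D4, and 979, 748 and 789 at D6. The D2 libraries were the lowest, and the D4 and D6 libraries lay above D0. The log2 change was 0.35 ± 0.11 at D4 (adjusted p = 0.015) and 0.51 ± 0.11 at D6 (adjusted p = 0.00015). The D4 call was lost without D0 replicate 3 or D4 replicate 1, at a mapping quality of at least 10 and after thinning. Atp5d is the delta subunit of the central stalk (chr10:80142315-80145818, plus strand), and 1.12% of its reads had a mapping quality of at least 10. It held 402, 459 and 419 at D0, 389, 286 and 289 at D2, 537, 531 and 470 at D4, and 405, 295 and 324 at D6. It was lower at D2 (-0.46 ± 0.15, adjusted p = 0.037) and D6 (-0.36 ± 0.13, adjusted p = 0.022), with overlap at D6, while its D4 libraries all lay above D0 (0.25, adjusted p = 0.12). The D2 call of Atp5d was lost in 6 of 9 alternative settings, library totals among them, and in 4 of the 12 fits that left out a library. Its D6 call was lost in 3 of 9 settings, such as library totals (-0.12, adjusted p = 0.44), and in 3 of the 12 fits that left out a library, such as D6 replicate 2 (-0.25, adjusted p = 0.19).

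The proton-carrying c subunit of ATP synthase is encoded by 3 genes that yield the same mature protein. Their shares of c-subunit reads at D0 were 25.3% ± 0.9 for Atp5g1, 35.9% ± 2.4 for Atp5g2 and 38.8% ± 3.3 for Atp5g3 (SD, n = 3). At D6 the shares were 24.4% ± 0.9, 37.7% ± 0.8 and 37.9% ± 1.4, and none of the 3 had shifted by more than 1 SD of its D0 libraries. At D4 the Atp5g1 share was 21.2% ± 0.9, with all 3 libraries below D0. Atp5g2 had the smallest change of complex V at D6, -0.04 on the log2 scale, and with library totals this became 0.21 (adjusted p = 0.050).

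**Figure D3:**
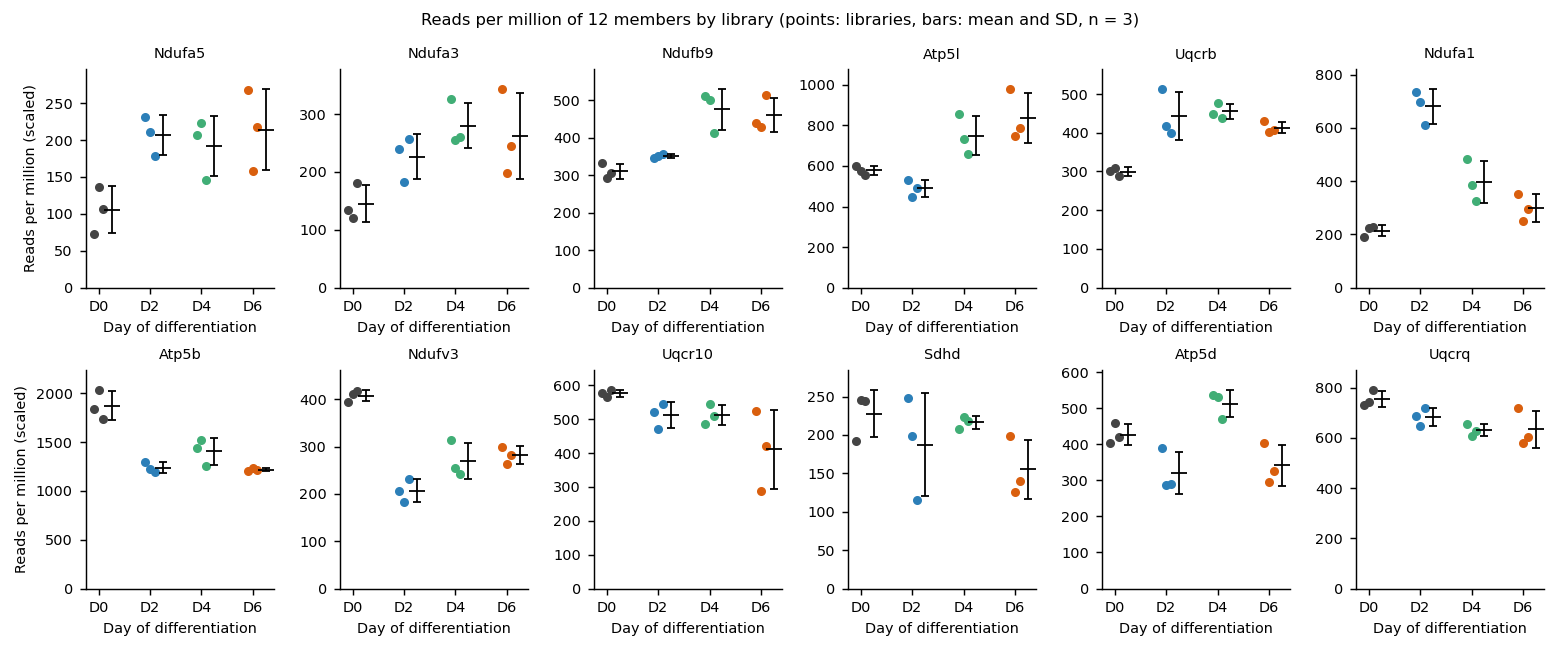
Scaled RPM (vertical axis) by day for the 6 members with the largest called rise, with Ndufa1 in the last place of the top row in lieu of Ndufa4, and the 6 with the largest called fall at D6; points are libraries and bars are mean and SD of 3. Ndufa1 peaks at D2, Atp5b stays at or below 1527 after D0, and Uqcr10, Sdhd and Atp5d spread widely at D6.

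Genes that serve the chain were counted in lists written from general knowledge. For comparison, 19% of all genes tested rose at D6 and 18.7% fell. The shares that rose and fell were 8.89% and 15.6% for assembly factors, and 0% and 30.8% for regulators. They were 11.1% and 11.1% for electron carriers and ubiquinone synthesis. No list was tested against the share of all genes. Of 45 assembly factors tested, 4 rose and 7 fell at D6, with Cox19 (copper delivery to complex IV) at 1.33 and Lyrm7 (complex III) at 1.08 on the log2 scale, and Nubpl (iron-sulfur clusters of complex I) at -2.82 and Tmem70 (complexes I and V) at -1.21. Of 18 electron carriers and enzymes of ubiquinone synthesis, 2 rose (Etfdh 1.61, Coq6 0.81) and 2 fell (Coq7 -0.87, and cytochrome c, Cycs, -0.32). Of 13 regulators of mitochondrial genes, 0 rose and 4 fell (limma, 6 at an unadjusted p under 0.05), led by Tfb1m at -1.57 and Pprc1 at -1.40. Of the 6 carriers and porins, the ADP/ATP carrier Slc25a4 rose by 1.08 and Vdac3 by 0.39, while Vdac1 and Vdac2 changed by -0.65 and -0.61 among 3 that fell.

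Enzymes that feed the chain were read in the same way, beside the same shares of all genes. The shares that rose and fell were 15.8% and 26.3% for the tricarboxylic acid cycle list and 5.56% and 77.8% for glycolytic enzymes. They were 2.22% and 84.4% for cytosolic and 5.13% and 35.9% for mitochondrial ribosomal protein genes. Of 19 genes of the tricarboxylic acid cycle and pyruvate dehydrogenase, 3 rose and 5 fell at D6, with both subunits of the mitochondrial pyruvate carrier, Mpc1 (3.27) and Mpc2 (1.43), among the rises and Suclg2 (-1.74) and Pdha1 (-1.43) among the falls. Of 18 glycolytic enzymes, 14 fell and 1 rose, with a median log2 change of -2.42. Lactate dehydrogenase A (Ldha) was at -3.76 and Ldhb, the isoform of oxidative tissues, at 0.42. Cytosolic ribosomal protein genes had 76 falls and 2 rises among 90, with a median of -0.54, and mitochondrial ribosomal protein genes had 28 falls and 4 rises among 78, with a median of -0.33.

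The third comparison asked whether the poly(A) tails of the members changed. Tail length was summarised per gene and library as the median in nucleotides and as the share of reads of 30 to 90 nt or under 30 nt, and was tested by limma weighted by reads on the 1739 genes with at least 10 reads in each library. Of the members, 75 qualified, leaving out Cox6b2 and Ndufs1 beside the 4 rare isoforms. At D6, 9 of 75 members had a shorter median tail and 0 a longer one (limma, 21 at an unadjusted p under 0.05 in either direction), against 7.48% of all genes shorter and 4.08% longer. The median change of the members was -6.41 nt, and that of all genes was 1.54 nt. At D4, 9 members were shorter and 0 longer (23 at an unadjusted p under 0.05), against 7.36% and 0.748%, with median changes of -5.85 nt for the members and -2.05 nt for all genes. At D2, 2 were shorter (Ndufa4 and Atp5h) and 0 longer (8 at an unadjusted p under 0.05), against 5.29% and 0.115%, and the D2 count was 0 or 1 without any one of 5 of the 6 libraries compared. The D6 count was 4 without any one of D0 replicates 2 and 3 and D6 replicates 2 and 3, and 1 when libraries were not weighted by reads. It was higher with tails less the library's median over genes, an alternative added after seeing the data. The D4 count was 4 without D0 replicate 2 and 0 without weights.

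With all reads of the members pooled, the median tail was 98.3, 104 and 104 nt in the D0 libraries, 95.9, 95.5 and 98.8 nt at D2, 93.7, 96.6 and 95.2 nt at D4, and 95.4, 95.2 and 95.9 nt at D6. The D4 and D6 libraries lay below D0, while D2 replicate 3 lay above the shortest D0 library, D0 replicate 1. Reads with tails over 90 nt went from 59.3% ± 2.2 to 53.9% ± 0.3 of members' reads between D0 and D6 (SD, n = 3), and reads under 30 nt from 1.81% ± 0.15 to 3.66% ± 0.42. In the same libraries the pooled median went from 97.2 to 80.1 nt for ribosomal protein genes and from 106 to 111 nt for all other nuclear genes. The mitochondrial mRNAs had short tails throughout, 63.82 nt ± 0.58 at D0 and 59.98 nt ± 0.46 at D6. Synthetic spike-in RNAs were read mostly in replicate 1 of each day. The one named for a tail of 256 bases, whose reading is nearest to the members' tails, gave medians of 105, 117, 107 and 113 nt for D0, D2, D4 and D6, on 58 to 175 reads. The one named for 128 bases gave 61.6, 64.6, 62.5 and 62.7 nt on 81 to 217 reads. The paper's list of spike-in oligonucleotides names no tail of 128 or 256 bases. It describes standards without an encoded tail that were tailed by enzyme, so the true lengths behind both names are not known here. The spike-in named for 64 bases gave 59.3, 63.6, 63.5 and 59.0 nt, and that for 32 bases gave 36.9, 31.7, 34.8 and 37.2 nt. The one for 16 bases gave 20.7, 19.4, 25.4 and 18.96 nt. The readings of the spike-in named for 256 bases differed between days by about as much as many of the called tail changes. Its D6 reading was above D0, and the part of this in the results was not tested.

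**Figure D4:**
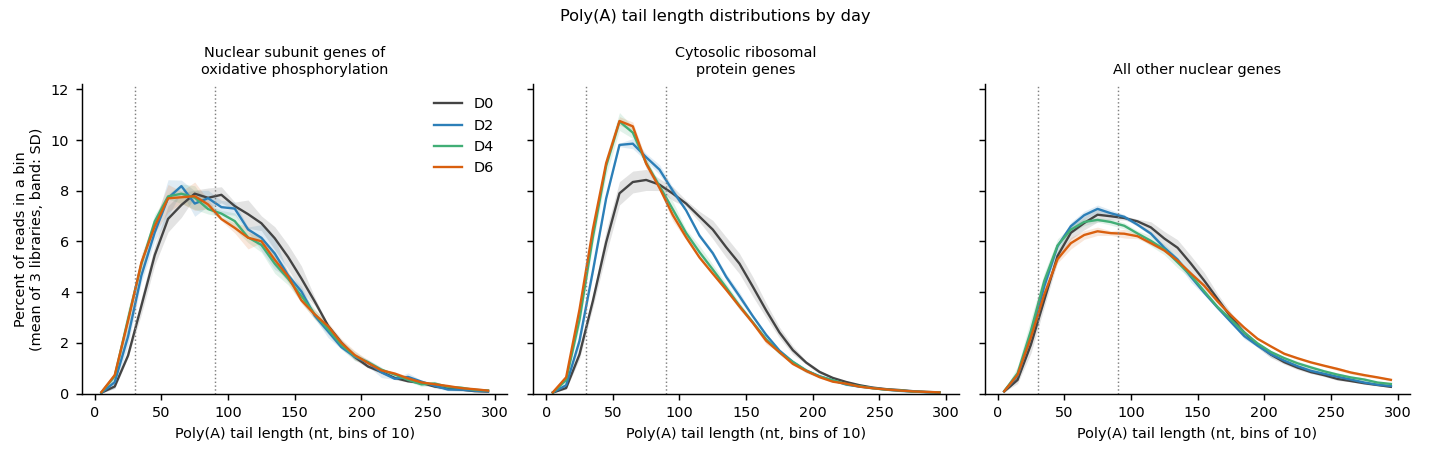
Share of reads (vertical axis, percent) by poly(A) tail length in bins of 10 nt (horizontal axis) for the members, the cytosolic ribosomal protein genes and all other nuclear genes; lines are means of the 3 libraries of a day, bands are SD, and dotted lines mark 30 and 90 nt. The members' D6 curve is shifted left of D0 by less than the ribosomal protein curve, with pooled medians of 95.5 and 80.1 nt at D6.

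The members with shorter tails at D6 were all supernumerary, 4 of 12 tested in complex IV and 5 of 17 in complex V, and 0 of 34 in complex I (limma, 7 at an unadjusted p under 0.05). For complex IV the class was fixed in advance, as said above. By complex, the median change was -8.20 nt in complex I, where 28 of 34 changes were below 0. It was 2.13, -0.98, -7.11 and -5.81 nt in complexes II, III, IV and V. The median change was -8.16 nt for 55 supernumerary subunits and -0.55 nt for 20 core subunits. The difference was not tested. Core and supernumerary subunits also differ in length, and across members the D0 median tail was longer in shorter transcripts (Spearman rho -0.46, n = 75), whereas it had a rho of 0.21 across 1727 genes tested.

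Cox4i1, the largest nuclear-encoded subunit of complex IV (chr8:120668222-120674207, plus strand), had the largest change of the 9 members called at D6. Its median tail was 111, 115 and 116 nt at D0, 106, 103 and 110 nt at D2, 96.6, 97.3 and 101 nt at D4, and 98.4, 97.7 and 92.8 nt at D6. No later library reached D0, and the shortening was -15.75 ± 2.67 nt (SE) at D4 and -18.10 ± 2.68 nt at D6, with adjusted p of 8.3e-06 and 4.2e-07 (limma). The share of its reads with tails of 30 to 90 nt was 29.1, 25.4 and 30.5% at D0, 40.4, 40.3 and 35.2% at D2, 42.6, 42.3 and 42.1% at D4, and 41.1, 44.7 and 46.1% at D6. That share rose by 16.15 ± 1.80 percentage points at D6 (adjusted p = 1.3e-10), without overlap on any later day. Both D6 calls held under every alternative that was run.

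Cox6a1 (chr5:115345642-115348981, minus strand) had medians of 110, 107 and 106 nt at D0 and 90.5, 91.1 and 95.8 nt at D6, without overlap (-14.97 ± 3.12 nt, adjusted p = 0.00030). Cox7a2l, a factor of respiratory supercomplexes (chr17:83501918-83514330, minus strand), had 102, 107 and 113 nt at D0, 93.1, 90.1 and 88.3 nt at D4, and 96.4, 91.4 and 92.4 nt at D6, again without overlap. Its change was -17.34 ± 3.76 nt at D4 (adjusted p = 0.00055) and -14.59 ± 3.82 nt at D6 (adjusted p = 0.0054), the latter lost without D0 replicate 3 or D6 replicate 2. Cox6b1, a subunit on the intermembrane side, had 106, 112 and 116 nt at D0 and 98.5, 96.8 and 98.3 nt at D6 (-13.78 ± 4.21 nt, adjusted p = 0.021), a call lost in 4 of the 12 fits that left out a library and in 3 of 10 alternative settings. Its D2 libraries ranged from 83.3 to 111 nt and overlapped D0.

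At D4, 7 of 12 members of complex IV had shorter tails beside Atp5h and Ndufv2, a core subunit of complex I, and Cox8a, Cox7c, Cox6c and Ndufa4 were called there but not at D6. The D4 call of Cox6c was lost in 9 of the 12 fits that left out a library and in 7 of 10 alternative settings, and that of Cox8a in none of the 12. Ndufa4 had medians of 102, 119 and 116 nt at D0, 89.5, 91.4 and 98.0 nt at D2, 96.6, 98.3 and 97.7 nt at D4, and 108, 105 and 105 nt at D6. Its D2 and D4 libraries lay below D0, and its D6 libraries overlapped it (-7.29 ± 3.99 nt, adjusted p = 0.28). Whether the D4 and D6 changes differ was not tested, and all days share the D0 libraries.

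In complex V, Atp5mpl, a small proteolipid, had 100, 113 and 104 nt at D0 and 91.5, 95.2 and 83.7 nt at D6 (-15.67 ± 4.88 nt, adjusted p = 0.025), a call lost without D0 replicate 2 or D6 replicate 3 and in 3 of 10 alternative settings. Atp5k, subunit e of the membrane sector (chr5:108433244-108434448, minus strand), had 96.8, 104 and 103 nt at D0 and 88.1, 88.4 and 87.2 nt at D6 (-13.81 ± 4.48 nt, adjusted p = 0.033). Its D6 libraries lay close together and below D0, yet the call was lost in 6 of the 12 fits that left out a library. Atp5l, its partner subunit g, had 107, 109 and 108 nt at D0, 120, 108 and 108 nt at D2, 104, 109 and 102 nt at D4, and 97.2, 95.8 and 96.0 nt at D6. Only D6 was called (-11.76 ± 3.49 nt, adjusted p = 0.017), and that call was lost without D0 replicate 2 or D6 replicate 2. The remaining members called were Atp5h (-10.06 nt, adjusted p = 0.023) and Atp5e (-10.52 nt, adjusted p = 0.046). The call of Atp5h was lost in 4 of the 12 fits that left out a library, and that of Atp5e in 8 of the 12 and in 5 of 10 alternative settings. At the other extreme of the members, Sdha had medians of 101, 89.3 and 98.3 nt at D0 and 110, 111 and 129 nt at D6, a difference of 21.41 ± 8.99 nt that did not pass the test (adjusted p = 0.13).

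**Figure D5:**
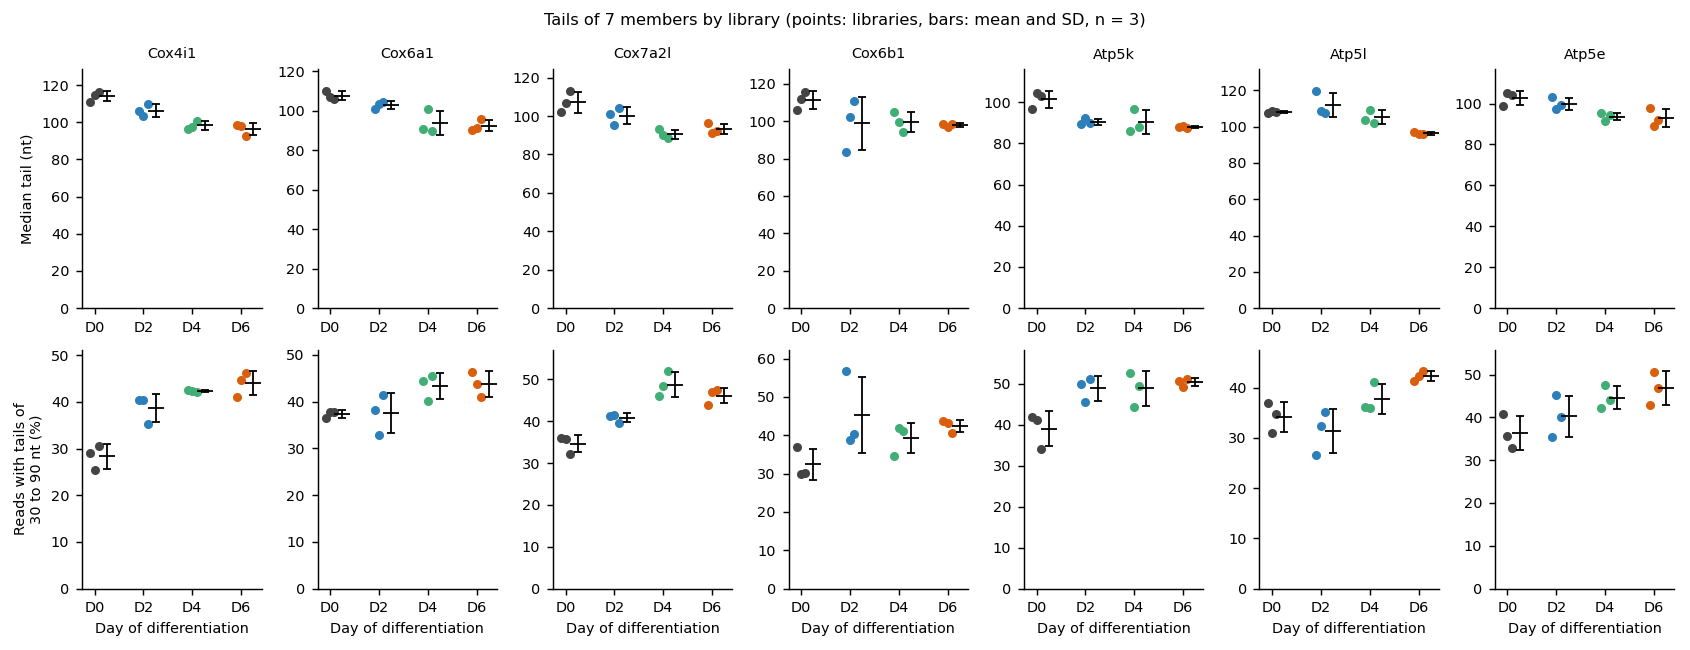
Median tail in nt (top row) and share of reads with tails of 30 to 90 nt in percent (bottom row) by day for 7 members; points are libraries and bars are mean and SD of 3. In all 7 the D6 points lie below the D0 points in the top row and above them in the bottom row.

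By tail class, the share of reads of 30 to 90 nt rose at D6 for 7 of 75 members and fell for 0 (limma, 18 at an unadjusted p under 0.05 in either direction), against 6.67% and 2.24% of all genes. After Cox4i1, the largest rises were those of Cox7a2l (11.82 ± 2.47 percentage points, adjusted p = 0.00029), Atp5k (11.36 ± 3.02, adjusted p = 0.0067) and Atp5e (11.08 ± 2.52, adjusted p = 0.0010). The Atp5e shares were 40.8, 35.6 and 32.8% at D0 and 42.9, 50.7 and 47.0% at D6. The count was 13 without D0 replicate 1, and 4 without D0 replicate 2 and without D0 replicate 3.

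The share of reads under 30 nt rose at D6 for 5 members, against 4.60% of all genes, and fell for 0, against 0.00% (limma, 30 at an unadjusted p under 0.05 in either direction). They were Atp5h (2.45, 2.32 and 0.51% at D0, 7.48, 4.84 and 4.74% at D6), Cox7b, Cox5a, Cox5b and Cox6c, with rises between 1.94 and 3.71 percentage points and adjusted p between 0.019 and 0.030 (limma). Cox7b had 2.65, 1.21 and 0.37% at D0 and 5.26, 5.06 and 4.60% at D6. The count depended on single libraries. It was 0 without D0 replicate 3 or D6 replicate 1, 1 without D0 replicate 2 or D6 replicate 2, and 2 without D2 replicate 1.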

How the data were processed

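Direct RNA reads of 12 libraries were used. According to the study's methods, the authors used Guppy for base calling, Minimap2 for alignment to mouse transcripts (mm10), Nanopolish for the tails and Deeplexicon for the barcodes. The deposited table has 1 line per alignment, with tail length in nucleotides, a mapping quality score and a barcode confidence fraction. A second deposited table, with the authors' log2 fold changes and p-values, was not used.

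Lines tagged PASS on mRNA genes that are no pseudogenes were tallied by gene and library. Of 4673531 lines tagged PASS, 8216 repeat a read, and counting each read once was an alternative, beside other scalings, filters, weights and class limits, thinning, a replicate block and leaving out each library. Abundance was fitted with limma-voom (limma 3.58.1, R 4.3.3), with trimmed-mean scaling (M-values, 30% trimmed from ratios and 5% from levels) and a pseudocount of 0.5 reads, on genes with at least 30 reads. Tails were fitted with limma, weighted by reads, on genes with at least 10 reads in each library. The Benjamini-Hochberg adjustment ran over all genes tested, and the p-values rest on 3 biological replicates per day. The fits were tested on simulated data.

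Of the 77 members with at least 30 reads, 6 keep under 10% of their reads at a mapping quality of at least 10. Positions are those of the most read transcript in the deposited table and equal a reference annotation for 81 of 81 members. The members, gene lists and core subunits were chosen with earlier results of these data known. Named genes were the 6 largest called rises and falls at D6, 3 at D2 and D4, the 6 largest called tail changes, the 4 largest called changes of each tail class, isoform pairs, complex II, the most read and least changed member of each complex, and 2 rises and 2 falls of each list. Others, such as the rest of the called members, were named after their values were seen, and 1 gene that the rule names is not reported here. Python 3.11.15, numpy 2.4.6, pandas 2.3.3, scipy 1.17.1 and matplotlib 3.10.9 made the tables and figures.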

Additional observations from a re-analysis of the deposited data

Results flagged for a closer look

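Ndufb1-ps, named as a pseudogene and so outside the rule for members, held 1141 reads in the 12 libraries, of which 1140 were on a transcript of the protein_coding biotype. It had 248 ± 4.7 scaled RPM in the D0 libraries (SD, n = 3), with 226 ± 17.3 at D2 and 343 ± 60.7 at D6. A further 5285 reads on members carried no assigned library and entered no comparison.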

How the results depend on the processing

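Members called higher and lower in abundance moved as follows by more than 1.5 times. With library totals in place of scaling they were 10 and 2 at D2, 41 higher at D4, and 45 and 3 at D6. After thinning to the smallest library they were 2 and 2 at D2, 9 and 1 at D4, and 6 and 1 at D6. At a mapping quality of at least 10 they were 3 lower at D2, 14 and 4 at D4, and 4 lower at D6. At D2, 3 were lower with the median of ratios, 3 with the protein_coding biotype only and 2 at a barcode confidence of at least 0.75, and at D6 4 were lower with limma-trend. Leaving out 1 library gave 3 to 4 higher and 2 to 7 lower at D2, 14 to 29 and 2 to 3 at D4, and 10 to 21 and 2 to 8 at D6. Atp5g2 at D6 was 0.21 with library totals and -0.04 with scaling.

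Ratios of summed reads, D6 over D0, after scaling were 1.06 for all members, 1.14, 0.968, 0.960, 1.12 and 0.981 for complexes I to V, and with library totals 1.20 for complex V at a mapping quality of at least 10. With library totals and without 1 library they were 1.21 to 1.28 for all, 1.31 to 1.40 (I), 1.10 to 1.16 (II), 1.07 to 1.17 (III), 1.27 to 1.36 (IV) and 1.13 to 1.17 (V).

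Members with shorter median tails at D2 numbered 1 with at least 5 reads, barcode confidence of at least 0.75, mapping quality of at least 10 or the mean tail, and 0 when unweighted. Unweighted, D4 gave 0, D6 gave 1, and the share of 30 to 90 nt gave 1. The mean tail gave 1 longer member at D6. An alternative added after seeing the data, tails less the library's median over genes, gave 0 at D2 and 15 at D6. The share under 30 nt gave 8 with at least 20 reads, 2 with at least 5, 2 under 25 nt, 12 under 35 nt and 0 unweighted. Without 1 library, shorter members were 0 to 2 at D2, 4 to 13 at D4 and 4 to 13 at D6, longer ones 0 to 0, the share of 30 to 90 nt 4 to 13 higher and 0 to 0 lower, and the share under 30 nt 0 to 6 higher and 0 to 0 lower. The causes were not tested.

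Replicate numbers recur on each day and were tried as a replicate block, which gave 4 and 7 members at D2, 26 and 3 at D4 and 18 and 8 at D6 for abundance, and 2, 10 and 9 shorter tails. Deviations of libraries with the same number correlated between -0.17 and 0.36 (median 0.097, 18 pairs, 1054 genes) and those with different numbers between -0.36 and 0.27, and 8 of 12 libraries correlated best with their own number. The samples share only a number. Depth limits the members with few reads, most of all at D2, and Cox6b2 could not be fitted after thinning, nor could Atp5a1, Atp5d, Ndufs3, Ndufs7 and Uqcrc1 at a mapping quality of at least 10.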
